A study of Arabidopsis thaliana with 4 samples.

Results

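Root tips of the Arabidopsis thaliana mutant med16-2 were compared between seedlings grown at low phosphate and seedlings grown at high phosphate. The comparison takes 2 of the 4 libraries of the series, 1 from each phosphate level, over 33602 annotated loci, of which 18692 were abundant enough to compare. Both libraries came from seedlings sampled 4 days after germination on agar medium with sucrose, with 1 mM phosphate in the high phosphate group and 5 µM in the low phosphate group. The other 2 libraries are Col-0, the accession the labels also give for the mutant, at the same age and phosphate levels, and were used to scale the data and to show where med16-2 differed. The labels name no other genotype or agent. med16-2 is 1 mutant line, with no second allele and no complemented line among the libraries, so what belongs to the loss of MED16 and what belongs to the line cannot be told apart. Each group is 1 library of a bulk root tip sample. No difference therefore has a replicate check, no p-value is given, and every statement compares libraries.

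MED16 is a subunit of the tail of Mediator, the complex that links transcription factors on DNA with RNA polymerase II. Plants short of phosphate use a systemic programme, driven by the transcription factor PHR1 and its relatives and held back by SPX proteins when phosphate is ample, which raises uptake, scavenging and the replacement of phospholipids. A local programme in the root tip runs through the transcription factor STOP1, the malate channel ALMT1 and the ferroxidase LPR1, and involves iron that collects in the apoplast. MED16 is known from work in Arabidopsis to take part in iron uptake, cold acclimation and jasmonate and salicylate responses.

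Values below are read counts in the med16-2 high phosphate library followed by the med16-2 low phosphate library, unless said otherwise. Folds and log2 ratios are low over high phosphate after TMM scaling (a factor that corrects library size for composition), on counts plus 0.5. Because the high phosphate library is deeper, with 14266585 gene counts against 12302510, equal counts correspond to a log2 ratio of 0.23. A locus met the size rule, or was called, when it differed at least 2-fold and the exact 95% interval of its ratio excluded equality. Numbers in parentheses after a fold are that interval, which covers counting error only. Gene lists were chosen with earlier results of these data known. Shares of a list set beside those of all loci are therefore descriptions and no test of the list.

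MED16 (AT4G04920) had 56 and 48 counts in the med16-2 libraries against 420 and 747 in the Col-0 libraries. It was low in both mutant libraries, the direction the labels give, and its log2 ratio between the phosphate levels was 0.01. Root tip markers were compared between the phosphate levels: 0 of 8 compared stem cell niche genes, 0 of 31 cell cycle genes and 0 of 11 root cap genes met the size rule. Both libraries carry the root tip label, so such calls cannot check it. PLT1 and PLT2, transcription factors of the root meristem, had 288 and 293 counts and 211 and 197 counts. WOX5, the marker of the quiescent centre, had 5 and 7 counts, against 5 and 56 in Col-0. CYCB1;1, a mitotic cyclin, had 336 and 225 counts, and the cell cycle list had a median log2 ratio of -0.09. None of the 11 reference genes, among them ACT7 with 11881 and 10137 counts, met the rule, and their median was -0.01.

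The low phosphate library of med16-2 differed in make-up from the others. Reads aligned to several places took 36.6% of its listed reads, against 7.18% in med16-2 at high phosphate and 6.65% to 9.27% in Col-0. The share of gene counts at the 18S rRNA locus AT3G41768 was 1.37%, up from 0.0972% in the high phosphate library of med16-2. In Col-0 it was 0.172% at high and 0.0963% at low phosphate. The organelle shares did not set this library apart from Col-0. Mitochondrial loci took 0.231% at high and 1.03% at low phosphate in med16-2, and 0.501% and 1.25% in Col-0. Plastid loci took 0.00336% and 0.0118% in med16-2, and 0.00812% and 0.0123% in Col-0. All 4 compared rRNA loci, all 26 compared mitochondrial loci and 26 of 30 plastid loci were called higher by the size rule, and none lower. AT3G41768 had 13872 and 168672 counts. The mitochondrial loci had a median log2 ratio of 2.42 in med16-2 and of 0.54 in Col-0, and the plastid loci 1.51 and 0.58. A further 20 compared nuclear loci lie within 10 kb of an annotated rRNA gene or match organelle DNA over at least 80% of their length at 90% identity, and 18 of these were higher. AT2G01021, beside an rRNA gene, was the most counted of them, with 6302 and 61154 counts. Together, rRNA, organelle and such nuclear loci account for 74 of the loci called higher. How the rRNA-rich make-up bears on other loci was not tested.

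**Figure D1:**
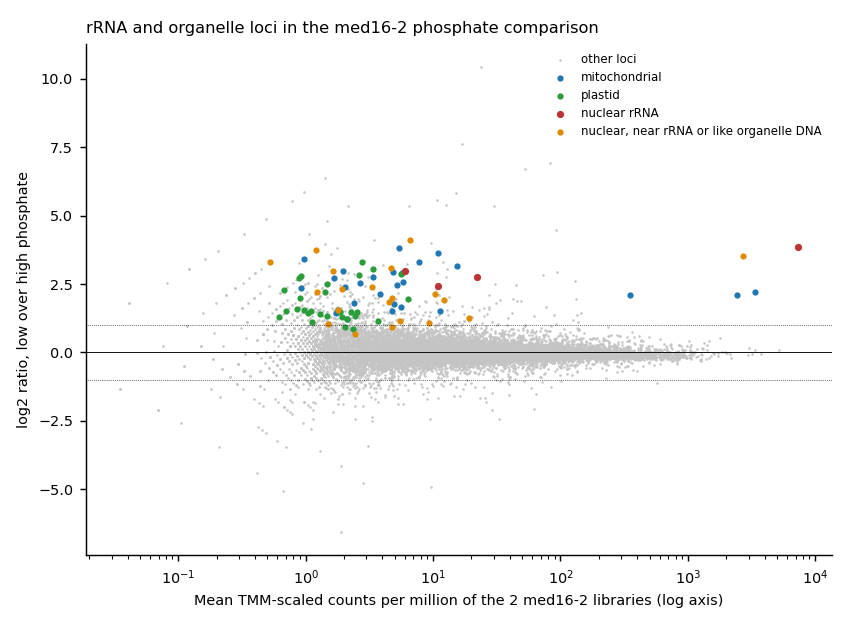
Each point is a locus; the horizontal axis is the mean of both med16-2 libraries in TMM-scaled CPM (counts-per-million) on a log axis and the vertical axis the log2 ratio of low over high phosphate, with dotted lines at 2-fold. The coloured rRNA, mitochondrial, plastid and rRNA-like or organelle-like nuclear loci lie above 0, while most other loci lie within 2-fold.

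Over all compared loci the comparison was close to balanced, with a median log2 ratio of -0.01 and lower and upper quartiles of -0.14 and 0.16. In all, 422 loci (2.26% of those compared) met the size rule as higher at low phosphate and 193 (1.03%) as lower. Of these, 144 and 31 differed at least 4-fold. Without the rRNA, organelle and rRNA-like or organelle-like loci, 348 higher and 193 lower loci remained of the same calls. A further 119 loci below the abundance limit would have met the rule as higher and 58 as lower, none with more than 37 counts in either library.

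Among called loci that averaged 5 CPM or more in med16-2, rRNA and organelle loci aside, the 12 largest increases were mostly phosphate starvation genes: PHT1;2, AT4, G3PP1, IPS1, PECP1, PAP17 and SPX1, described below with their values. The other 5 were the locus AT2G04460 with 0 and 587 counts, the uncharacterized AT5G20790 with 8 and 305, the organic cation transporter OCT1 (AT1G73220) with 4 and 156, the non-coding RNA locus AT1G15405 with 16 and 223, and AT2G07671 with 10 and 153. AT2G04460 was at least 230-fold higher, taking 3 counts as the limit for the empty library. AT2G07671 is one of the nuclear loci like organelle DNA, and both it and AT1G15405 were called lower in Col-0.

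The 12 largest decreases under the same limit of 5 CPM began with FSD1, the iron superoxide dismutase, AGP30, an arabinogalactan protein of the cell wall, and the oligopeptide transporter OPT3. Less abundant genes such as IRT1 and BHLH39, given below, had larger ratios than AGP30 and OPT3. FSD1 (AT4G25100) had 267 and 7 counts and was 30.4-fold lower (15.6 to 81.6). AGP30 (AT2G33790), at 799 and 125 counts, was lower by a factor of 5.43 (4.51 to 6.63). The acyltransferase DGAT3 had 676 and 132 counts and the tyrosine aminotransferase TAT3, a jasmonate-responsive gene, had 1438 and 292. The remaining 7 fell between 3.73-fold and 3.15-fold: the peroxidase AT1G14550, the leucine-rich repeat gene AT2G26380, AT3G56360, the hydrolase AT1G78210, BT2, ZIP2 and TIP2;3. Of the 12, TAT3, AT2G26380 and AT1G78210 had log2 ratios of 0.74, 0.85 and 0.81 in Col-0, the opposite sign, none of which met the rule there.

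PHR1 and its relatives bind the P1BS element, whose letters are GNATATNC and read the same on both strands. The window from 250 bases before to 50 bases after the annotated start was searched for it in the RefSeq annotation of TAIR10.1. It was found in 30 of the 60 listed phosphate starvation genes. These were 12 of the 21 that were higher in med16-2, 6 of the 19 compared that were not and 12 of the 20 not compared. By comparison it occurred in 6.13% of all 37897 promoters, in 11.9% of those of compared loci called higher, in 7.77% of those called lower and in 6.09% of the rest. A match is a run of letters and not a shown binding site. The heat shock element core, GAANNTTC, also reads the same on both strands, and the run GAATATTC satisfies both. Such a place is held by 347 promoters, 10 of them on the phosphate starvation list. That core occurred in 11.4% of all promoters, in 16.8% of those of compared loci called higher and in 7.77% of those called lower. It was found in 8 of the 21 phosphate starvation genes that were higher and 4 of the 19 compared that were not. A larger share among higher loci was thus not particular to P1BS.

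Promoter stretches of 4 genes called higher are shown, with PLDZ2, which holds the element but did not meet the rule. They are written 5′ to 3′ on the gene's strand, the P1BS match in capitals, from RefSeq TAIR10.1. For SPX1 the match begins 23 bases after the annotated start, so 30 bases around it are given; for the others the 250 bases before the start are given.
SPX1 (chr5:6802293-6802322, plus strand): cagagaaaaaaGGATATTCtaattagaaac
AT4 (chr5:894332-894581, plus strand): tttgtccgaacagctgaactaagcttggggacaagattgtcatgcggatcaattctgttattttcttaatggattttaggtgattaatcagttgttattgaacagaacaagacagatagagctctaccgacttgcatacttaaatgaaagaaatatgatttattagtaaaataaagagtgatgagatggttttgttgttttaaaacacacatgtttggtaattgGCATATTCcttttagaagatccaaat
PHT1;2 (chr5:17415448-17415697, plus strand): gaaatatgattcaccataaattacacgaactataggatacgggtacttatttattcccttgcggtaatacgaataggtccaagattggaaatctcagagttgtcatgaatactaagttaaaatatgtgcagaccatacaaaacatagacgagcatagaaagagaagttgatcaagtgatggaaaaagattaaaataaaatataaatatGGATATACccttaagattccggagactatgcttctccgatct
NPC4 (chr3:845097-845346, minus strand): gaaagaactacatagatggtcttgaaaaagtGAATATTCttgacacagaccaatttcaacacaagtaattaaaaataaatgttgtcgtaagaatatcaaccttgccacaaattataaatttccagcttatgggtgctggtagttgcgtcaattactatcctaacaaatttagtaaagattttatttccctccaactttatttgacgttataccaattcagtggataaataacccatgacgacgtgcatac
PLDZ2 (chr3:1634944-1635193, plus strand): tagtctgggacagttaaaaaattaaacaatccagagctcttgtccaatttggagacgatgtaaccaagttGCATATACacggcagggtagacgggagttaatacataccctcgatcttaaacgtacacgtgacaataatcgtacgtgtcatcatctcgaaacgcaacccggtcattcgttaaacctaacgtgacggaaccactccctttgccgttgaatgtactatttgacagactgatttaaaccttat
The match lies 26 bases before the start in AT4, 42 in PHT1;2, 180 in PLDZ2 and 219 in NPC4, and the NPC4 match is the form that satisfies both motifs. IPS1, G3PP1, PAP17 and PECP1, among the largest increases, have no match in this window, which says only that these letters are not in it.

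Of the 60 listed phosphate starvation genes, 40 were abundant enough to compare, and 21 were called higher in med16-2 and 0 lower, against 2.26% and 1.03% of all loci. The median log2 ratio of the 40 was 1.04, against -0.01 over all loci, and their summed abundance was 1644 CPM (counts-per-million) at high and 2914 CPM at low phosphate. The other 20 had no more than 8 counts in either med16-2 library. In Col-0, 25 of the 40 were called higher and 0 lower, their median being 1.18, where 3.24% of all compared loci were higher and 1.49% lower. By role, the median log2 ratio in med16-2 ran from 6.38 for the pair of compared non-coding RNAs and 2.76 for SPX genes down to 0.52 for lipid remodelling.

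Of the SPX genes, SPX1 (AT5G20150), whose P1BS match is shown above, had 114 and 2152 counts. It was 22.1-fold higher (18.4 to 27.0). SPX3 (AT2G45130) had 1 and 52 counts, a ratio of 41.1 whose interval of 10.5 to 2457 is wide because of the near-empty high phosphate library. SPX2 had 302 and 532 counts, just past 2-fold at 2.07 (1.79 to 2.39). SPX4, whose protein is known to be degraded when phosphate is short while its transcript changes little, had 307 and 208 counts and a log2 ratio of -0.33. Thus 3 of the 4 sensor genes were higher.

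PHT1 genes encode the proton-coupled phosphate transporters of the root. PHT1;2 (AT5G43370) had 2 and 415 counts, a ratio of 195 (67.0 to 2018). PHT1;4 (AT2G38940) had 316 and 2050 counts and was 7.61-fold higher (6.76 to 8.60), and PHT1;1 had 1132 and 2598, 2.69-fold higher (2.51 to 2.89). PHT1;1, PHT1;2 and PHT1;3 are neighbours of very similar sequence, so how their reads were divided is uncertain. PHF1, the factor that lets these transporters leave the endoplasmic reticulum, had 514 and 848 counts, 1.94-fold higher (1.73 to 2.17), short of the rule. PHT1;8 and PHT1;9 were each at 0 and 7 counts, below the abundance limit.

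Among genes for the movement of phosphate and glycerol-3-phosphate, G3PP1 (AT3G47420) had 14 and 1279 counts and was 104-fold higher (63.7 to 197). PHO1;H1, a relative of the xylem loader PHO1, had 149 and 549 counts, 4.31-fold higher (3.60 to 5.22). G3PP3 had 24 and 62 counts and also met the rule. PHO1 itself had 739 and 1077 counts, 1.71-fold (1.56 to 1.88), and G3PP4 110 and 76. The exporter genes thus ranged from a log2 ratio of 6.69 down to -0.30.

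IPS1 and AT4 are non-coding RNAs that mimic the target of miR399 and hold that miRNA away from PHO2. AT4 (AT5G03545) had 19 and 2010 counts, 121-fold higher (79.3 to 207). IPS1 (AT3G09922) had 7 and 366 counts, 57.4-fold higher (29.5 to 154). Their ratios parted from Col-0 in opposite directions: the difference of log2 ratios, med16-2 minus Col-0, was 2.01 (1.34 to 2.69) for AT4 and -2.21 (-4.29 to -0.14) for IPS1. In AT4 the groups differed at high phosphate, with 1.32 CPM in med16-2 against 18.8 CPM in Col-0, while at low phosphate the levels were 164 and 565 CPM. The 6 miR399 precursor loci held at most 4 counts in either med16-2 library, and the miR827 precursor 0 and 8.

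Phosphatases and ribonucleases help to free phosphate from compounds that hold it. PAP17 (AT3G17790) had 20 and 717 counts and was 41.1-fold higher (27.0 to 69.3), and PECP1 (AT1G17710), a phosphocholine phosphatase, had 6 and 260, 47.0-fold higher (23.1 to 140). PS2, a pyrophosphatase, had 197 and 937 counts, 5.57-fold (4.78 to 6.54). RNS1, a ribonuclease, had 34 and 80 counts, 2.74-fold higher (1.83 to 4.26), against 97 and 928 in Col-0. PAP10 and PAP12, acid phosphatases of the root surface, had 203 and 307 counts and 1265 and 1818 counts, at 1.77-fold (1.48 to 2.13) and 1.69-fold (1.57 to 1.81). The constitutive PAP26 had 4901 and 3837, a log2 ratio of -0.12. In all, 6 of 11 compared genes of this role met the rule, and reads of PAP17 and PAP24 cannot be told apart from those of overlapping loci.

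Lipid remodelling exchanges phospholipids for galactolipids and sulfolipids. Of the 13 compared genes, 4 met the rule. NPC4 (AT3G03530), a phospholipase C, had 5 and 80 counts and was 17.2-fold higher (7.72 to 59.4). GDPD1, a glycerophosphodiesterase, had 134 and 642 counts, 5.61-fold (4.66 to 6.83), and the sulfolipid synthase SQD1 had 198 and 504, 2.98-fold (2.53 to 3.54). MGD2, a galactolipid synthase, had 88 and 196 counts, 2.61-fold (2.02 to 3.40). The rest stayed below 2-fold: SQD2 with 1723 and 2104 counts, MGD3 with 96 and 142, and the phospholipase PLDZ2, whose promoter is shown above, with 166 and 194.

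Against Col-0, 6 of the 40 compared phosphate starvation genes differed in their log2 ratio by at least 1 with an interval that excluded 0. Over all loci this difference was met by 429 loci (2.30%) with the larger log2 ratio in med16-2 and by 404 (2.16%) with the smaller. AT4 and G3PP2 had the larger ratio in med16-2. IPS1, RNS1, MGD3 and PLDZ2 had the smaller, with differences of -1.20 for MGD3 (-1.73 to -0.67) and -1.29 for PLDZ2 (-1.72 to -0.87). PLDZ2 stood at 11.5 and 15.8 CPM in med16-2 and at 10.3 and 34.6 CPM in Col-0. The other 34 of the 40 did not meet this rule, which does not show that they were alike, and the median difference was -0.09. The level itself, in CPM, was lower in med16-2 than in Col-0 for 33 of the 40 genes at high phosphate and for 35 at low phosphate.

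**Figure D2:**
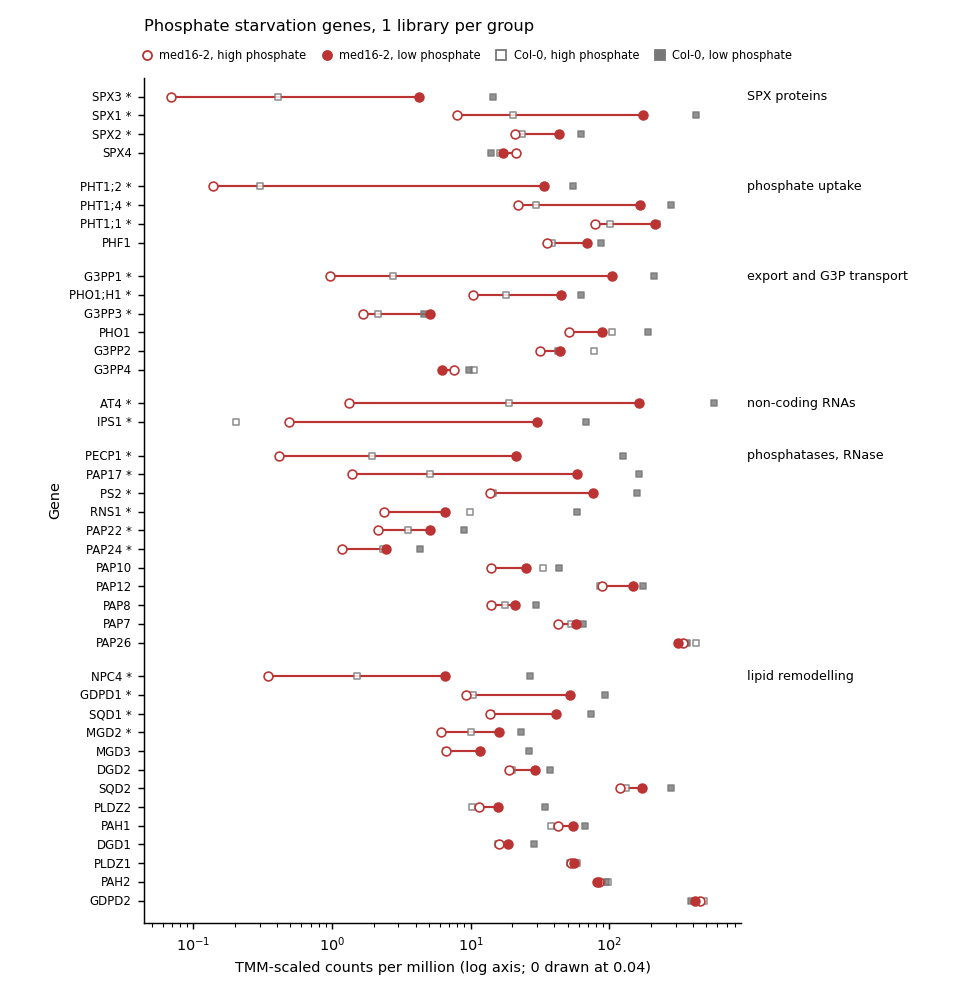
Each row is 1 of the 40 compared phosphate starvation genes, grouped by role, and the horizontal axis is TMM-scaled CPM on a log axis; circles joined by a line are the med16-2 libraries, squares the Col-0 libraries, and filled symbols low phosphate. Asterisks mark the 21 genes that met the size rule in med16-2, among which SPX1, AT4 and G3PP1 move from the left to the right of the plot.

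Of the 15 compared regulators of phosphate signalling, 1 met the size rule. PHO2 (AT2G33770), the ubiquitin conjugase that removes phosphate transporters and is the target of miR399, had 1369 and 404 counts and was 2.88-fold lower (2.58 to 3.23). It stood at 95.1 and 32.9 CPM in med16-2 and at 89.3 and 75.4 CPM in Col-0, where it did not meet the rule. The difference of log2 ratios was -1.28 (-1.49 to -1.08), so the low value was that of the med16-2 low phosphate library. PHR1 had 739 and 584 counts, a log2 ratio of -0.11, and NLA, a ubiquitin ligase of the same transporters, had 217 and 151. Their ratios lay within 2-fold, as did those of the relatives of PHR1 and the inositol pyrophosphate kinases.

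In the local pathway, 2 of 17 compared genes met the rule as higher and 0 as lower, beside 2.26% and 1.03% of all loci. ALMT1 (AT1G08430), the malate channel gene controlled by STOP1, had 257 and 1578 counts and was 7.19-fold higher (6.31 to 8.25). In Col-0 it had 421 and 3151 counts, a log2 ratio of 2.21 against 2.85 in med16-2, a difference short of 1. The MATE efflux gene AT1G51340 had 14 and 32 counts, 2.63-fold higher (1.39 to 5.44). STOP1 itself had 2144 and 1585 counts, a log2 ratio of -0.20, and LPR1, the ferroxidase, 52 and 60. PGIP2, another STOP1 target, had 17 and 17 counts in med16-2 and 24 and 121 in Col-0, and its ratio differed between the genotypes.

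Ferritins store iron, and VTL proteins move it into the vacuole. In med16-2, 6 of the 7 compared iron storage genes were called higher and 0 lower, against 2.26% and 1.03% of all compared loci, and their median log2 ratio was 1.48. In Col-0, 2 of the 7 were called higher, against 3.24% of all loci, with a median of 0.53. FER1 (AT5G01600) had 526 and 2720 counts and was 6.06-fold higher (5.53 to 6.68). FER4 (AT2G40300) had 114 and 314 counts, 3.22-fold (2.60 to 4.04), FER2 88 and 183, and FER3 1105 and 2118. VTL1 had 33 and 79 counts and VTL2 5 and 20. VTL5, with 140 and 232, was 1.94-fold higher (1.57 to 2.42), short of the rule.

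At low phosphate the genotypes were close: FER1 stood at 222 CPM in med16-2 and 228 CPM in Col-0, and FER2 at 14.9 and 14 CPM. At high phosphate the mutant was lower, with 36.5 CPM against 76.8 for FER1 and 6.11 CPM against 15.2 for FER2. A larger log2 ratio in med16-2 was met by 2.30% of all loci and by 3 of these 7 genes, by 1.03 for FER1 (0.85 to 1.21), 1.41 for FER2 (0.94 to 1.88) and 1.22 for FER4 (0.82 to 1.61). FER1, FER2 and FER4 overlap other loci, and reads of the overlap cannot be told apart.

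The iron deficiency response raises uptake through FIT and the bHLH factors of the BHLH39 group. Of 26 compared genes, 4 were called lower and 1 higher, and the median log2 ratio was -0.14. Over all loci the shares were 1.03% lower and 2.26% higher, so the single higher call is near the background. BHLH39 (AT3G56980) had 52 and 2 counts, a ratio of 17.9-fold lower (5.83 to 188). IRT1 (AT4G19690), the root iron transporter, had 79 and 2 counts, 27.1-fold lower (9.01 to 283). OPT3 (AT4G16370), which loads iron into the phloem, had 231 and 36, 5.40-fold lower (3.84 to 8.0), and FPN2, a vacuolar nickel and iron transporter, had 26 and 6. All 4 were low in the low phosphate library, 2 of them to 2 counts.

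FIT had 510 and 297 counts, a log2 ratio of -0.55, and FRO2, the ferric reductase, 175 and 127. FRD3, the citrate effluxer that feeds iron to the xylem, was the 1 member called higher, with 159 and 277 counts. Further members were below the abundance limit: BHLH38 had 23 and 0 counts, BHLH101 13 and 1, and CYP82C4 8 and 0. AT1G47395 and AT1G47400, also below it and without a symbol in the annotation used, had 11 and 0 and 8 and 0 counts. Without that limit these 5 would also have met the rule as lower. The uncharacterized AT5G05250, not on the list and picked out after its values were seen, had 55 and 0 counts, at least 15.6-fold lower. In Col-0 it had 22 and 15 counts and was also called lower.

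Compared with Col-0, 4 of the 26 had a smaller log2 ratio in med16-2, beside 2.16% of all loci: the difference was -3.56 for BHLH39 (-5.53 to -1.59), -2.51 for IRT1 (-4.48 to -0.53) and -1.93 for OPT3 (-2.60 to -1.26). NAS2, a nicotianamine synthase, also differed, with 41 and 26 counts in med16-2 and 40 and 132 in Col-0. At low phosphate OPT3 stood at 2.94 CPM in med16-2 and 5.51 CPM in Col-0, and at high phosphate at 16.1 and 7.82 CPM, so the genotypes changed order. IRT1 was called lower in both genotypes, whereas BHLH39 and OPT3 met the rule in med16-2 and not in Col-0.

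**Figure D3:**
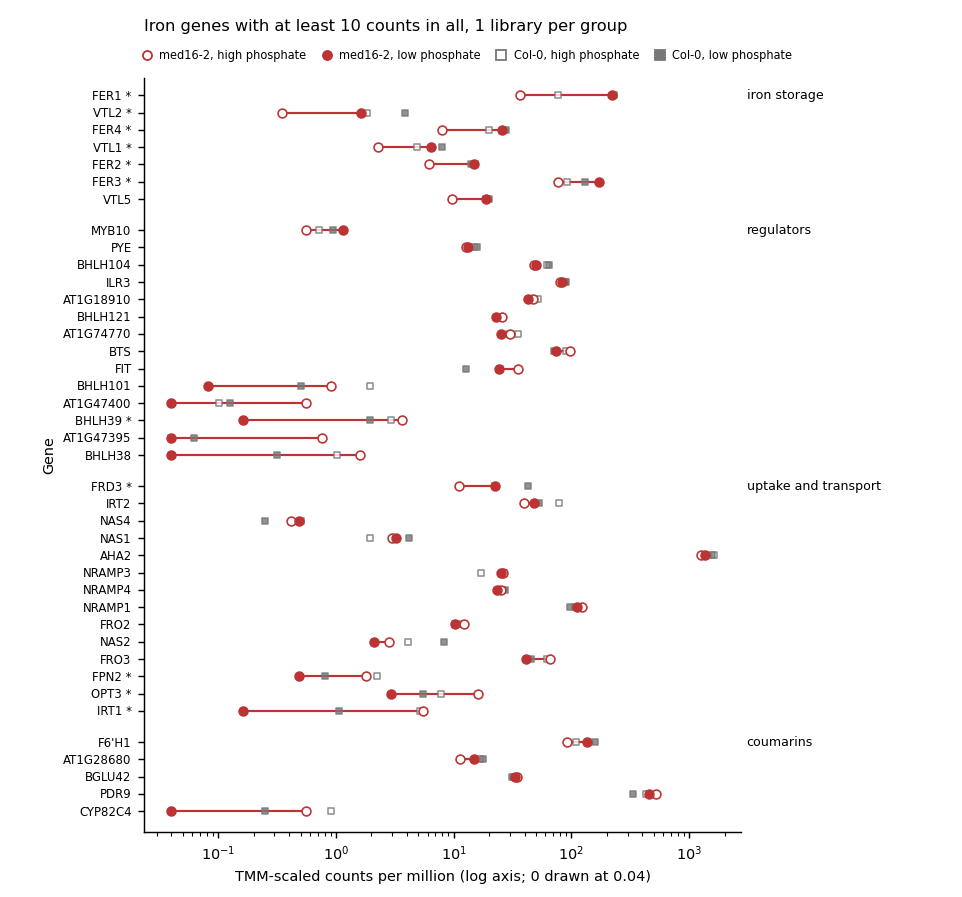
Rows are iron storage and iron deficiency genes with at least 10 counts over the 4 libraries, and the horizontal axis is TMM-scaled CPM on a log axis; circles are med16-2, squares Col-0, and filled symbols low phosphate, with counts of 0 drawn at the left edge. In med16-2 the storage genes FER1 to FER4 move to the right at low phosphate and BHLH39, OPT3 and IRT1 to the left, while most of the others lie within 2-fold.

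Copper and superoxide dismutase genes had 2 of 14 compared members lower, against 1.03% of all loci. These were FSD1, given above, and the metal transporter ZIP2, with 564 and 150 counts. FSD1 was lower in both genotypes, with 1323 and 132 counts in Col-0. The copper-zinc dismutases CSD1 and CSD2 had 5758 and 5875 counts and 2099 and 1662 counts. The copper reductase genes FRO4 and FRO5 had 0 counts in both med16-2 libraries, which allows up to 0.208 CPM at high and 0.245 CPM at low phosphate, and 65 and 4 and 18 and 1 counts in Col-0. No phosphate comparison of those reductases was possible in the mutant.

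Sulfate genes had 3 of 15 compared members called higher and 1 lower, against 2.26% and 1.03% of all loci. Their median log2 ratio was -0.07. SULTR1;3 with 0 and 35 counts, SULTR3;4 with 46 and 107 and LSU2 with 5 and 14 were higher. SULTR1;2, the main uptake transporter, with 1707 and 613 counts, was 2.37-fold lower (2.16 to 2.61). SULTR1;3, a phloem sulfate transporter, was at least 13.7-fold higher. All 4 were called the same way in Col-0. Among 16 nitrogen genes the nitrate transporter NRT2.1 was higher, with 4 and 21 counts, and the ammonium transporter AMT1;1 lower, with 40 and 15. Of 9 zinc genes ZIP1 was higher, with 38 and 67 counts. These 3 genes are thinly counted or near 2-fold, and a single call in lists of this size is near the share over all loci.

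**Figure D4:**
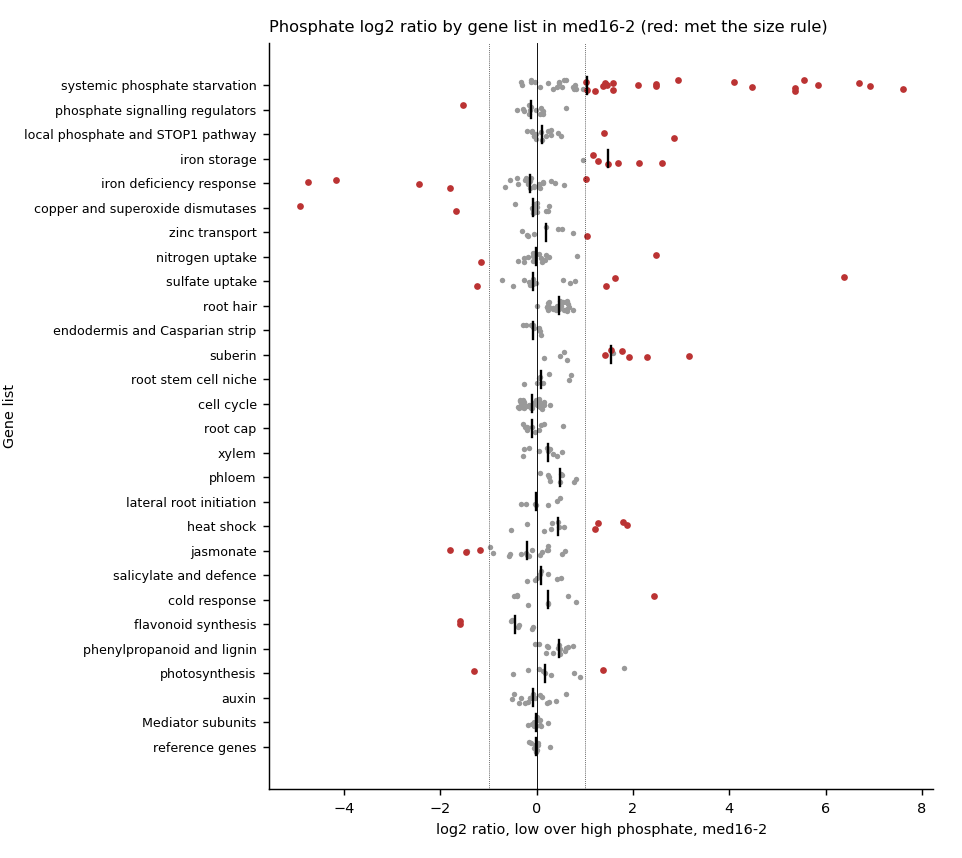
Rows are the 28 gene lists and each point is a compared member, placed at its log2 ratio of low over high phosphate in med16-2; red points met the size rule, black bars are list medians and dotted lines mark 2-fold. Phosphate starvation, iron storage and suberin have medians of 1.04, 1.48 and 1.54, and the cell cycle, Mediator and reference lists lie near 0.

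Suberin is the lipid polymer that seals older endodermis. Of the 11 compared suberin genes, 6 were called higher and 0 lower, against 2.26% and 1.03% of all loci, and the median log2 ratio was 1.54. The fatty acid hydroxylase CYP86A1 (AT5G58860) had 4 and 34 counts and was 9.0-fold higher (3.56 to 38.7). The transporter ABCG6 had 9 and 39 counts, the hydroxylase CYP86B1 14 and 42, the reductases FAR4 and FAR5 4 and 14 and 9 and 23, and the elongase KCS2 39 and 89. Counts were low, and their sum over the list was 129 CPM at high and 185 CPM at low phosphate.

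In Col-0 the same genes reached higher values, with 5 and 396 counts for CYP86A1 and 9 and 382 for ABCG6, 8 of 11 higher and a median of 2.76. The log2 ratio of 5 of the 11 suberin genes was smaller in med16-2, against 2.16% of all loci: the difference was -2.31 for CYP86A1 (-4.17 to -0.44), -2.35 for ABCG6 (-3.73 to -0.97) and -1.11 for CYP86B1 (-2.19 to -0.03), with FAR4 and FAR5 alike. The 9 compared Casparian strip genes, which mark younger endodermis, had 0 calls and a median of -0.07, with CASP1 at 2184 and 1993 counts. In a bulk root tip sample, more cells of a type and more RNA per cell cannot be told apart.

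None of the 25 compared root hair genes met the size rule, but all 25 had a log2 ratio above 0 in med16-2, with a median of 0.46, under each scaling except by total gene counts, where 24 did. In Col-0, 23 of the 25 were below 0, with a median of -0.40. RSL4 (AT1G27740), the bHLH factor that drives hair growth, had 570 and 646 counts in med16-2 and 793 and 690 in Col-0. It stood at 39.6 and 52.7 CPM in med16-2 and at 80.5 and 43.2 CPM in Col-0. XTH26, a wall enzyme of hairs, stood at 45.4 and 76.2 CPM and at 153 and 106 CPM. The difference of log2 ratios was 1.31 for RSL4 (1.09 to 1.53) and 1.28 for XTH26, whose interval also excluded 0, and PRP1 and RHS18 also passed 1.

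Markers of other tissues gave 0 calls among 11 xylem, 9 phloem and 7 lateral root genes, with medians of 0.24, 0.48 and -0.02. The 14 compared Mediator genes, including MED16, had 0 calls and a range from -0.18 to 0.23. Photosynthesis genes, which would mark shoot tissue, summed to 36.8 CPM at high and 39.5 CPM at low phosphate in med16-2 and to 348 and 242 CPM in Col-0. The log2 ratio was larger in med16-2 for 5 of the 11 compared, against 2.30% of all loci. What this marker difference adds to the comparisons with Col-0 was not tested. Of the 11, LHB1B2 was higher, with 27 and 60 counts, and ELIP2, a light stress protein, lower, with 70 and 24. RBCS1B, RBCS2B, RBCS3B, LHCB1.1 and LHB1B1 were at 0 in both libraries.

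Of the 12 compared heat shock genes, 4 were called higher and 0 lower, against 2.26% and 1.03% of all loci, with a median of 0.45. The chaperones HSP90.1 and HSP70-4 had 302 and 944 counts and 200 and 595 counts, 3.67-fold (3.22 to 4.19) and 3.49-fold higher (2.97 to 4.12). HSFA2, a heat shock factor, had 36 and 71 counts, 2.30-fold (1.53 to 3.56), and the small heat shock protein gene AT1G07400 had 22 and 46. The 9 members below the abundance limit, most of them small heat shock genes, had at most 18 counts in either med16-2 library, that of AT1G53540 with 18 and 17. Col-0 had 3 calls, among them HSP90.1 and HSP70-4, with log2 ratios of 2.06 and 1.77 against 1.87 and 1.80. The core of the heat shock element occurs in 11.4% of all promoters and in 10 of the 21 listed heat shock genes. It was found in 2 of the 4 called higher, 4 of the 8 compared and not higher and 4 of the 9 not compared. HSP90.1 and AT1G07400 have no match in the window. HSFA2 holds 3 matches, of which the pair before its start are in capitals in the 250 bases given here, and the third begins 7 bases after the start.
HSFA2 (chr2:11135374-11135623, plus strand): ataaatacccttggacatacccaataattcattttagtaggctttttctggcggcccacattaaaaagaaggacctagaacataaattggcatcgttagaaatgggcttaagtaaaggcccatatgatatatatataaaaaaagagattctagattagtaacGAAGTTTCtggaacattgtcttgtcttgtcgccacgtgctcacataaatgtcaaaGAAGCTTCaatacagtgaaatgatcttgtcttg

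Of 20 compared jasmonate genes, 3 were called lower and 0 higher in med16-2, against 1.03% and 2.26% of all loci. The median was -0.21, and 7 of the 20 had a log2 ratio above 0, up to 0.60. With a pseudocount of 5 or with thinning, 2 were called lower. The repressor gene JAZ9 had 192 and 59 counts, 2.76-fold lower (2.06 to 3.78), JAZ8 30 and 11, and AOC1, a jasmonate synthesis enzyme, 22 and 5. JAZ10 fell just short, with 756 and 331 counts. In Col-0, 4 members were higher and 0 lower, with a median of 0.47, and AOC1 had 15 and 89 counts. By the rule for differences, which 2.16% of all loci met in this direction, the log2 ratio of 9 members was smaller in med16-2 than in Col-0, most of all that of AOC1, by a difference of -3.63 (-5.19 to -2.08). The 8 compared salicylate and defence genes had 0 calls, and PR1, PR2 and PR5 were at 0 in both med16-2 libraries.

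Of the 8 compared flavonoid genes, 2 met the rule in med16-2: the isomerase CHI had 108 and 30 counts, 3.03-fold lower (2.03 to 4.76), while FLS1, flavonol synthase, had 354 and 100, 3.0-fold lower (2.41 to 3.80). All 8 log2 ratios were below 0, except 1 with a pseudocount of 5. Their median was -0.45 (-0.27 with that pseudocount and -0.29 with thinning). In Col-0, 6 of the 8 were called lower, with a median of -1.52. Over all compared loci, 1.03% were called lower and 2.26% higher in med16-2, and 1.49% lower in Col-0. CHS, the entry enzyme, had 1438 and 953 counts in med16-2 and 10910 and 9819 in Col-0. Of 9 compared cold response genes CBF1 was higher, with 2 and 11 counts, while its target COR47 had 8089 and 5217. None of the 14 phenylpropanoid and 17 auxin genes met the rule.

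In all, 8 families were taken from the annotation. Among 56 compared class III peroxidases, which crosslink or loosen the wall, 8 were higher and 3 lower, where 2.26% and 1.03% of all compared loci were. The highest were AT2G18150 with 1 and 35 counts, PRX52 with 1 and 25 and AT4G36430 with 11 and 89. The lower ones were AT1G14550 with 120 and 27, PER4 with 514 and 180 and AT5G39580 with 306 and 108. AT5G39580 had 114 and 940 counts in Col-0, a call in the opposite direction. Members of this family were thus called in both directions.

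Among 21 expansins, wall-loosening proteins, EXPA8, EXPA1 and EXPA12 were higher, with 21 and 73, 210 and 471 and 41 and 73 counts. Over all compared loci, 2.26% were higher. Of 26 aquaporins TIP1;3 was higher, with 6 and 28 counts, and TIP2;3, with 116 and 31, and RD28 (AT2G37180), with 433 and 154, lower. Of 39 glutathione transferases GSTF11 was higher, with 3 and 10 counts, and GSTU5, with 617 and 186, and GSTU11, with 65 and 23, lower. Calls in the aquaporin and glutathione transferase families were few beside the shares over all loci and are no result about those families. AGP30 was the 1 arabinogalactan protein of 35 that was called. None of the 43 histone and 23 XTH genes met the rule, and of 312 genes whose annotation names a ribosomal protein 1 did. That gene, AT3G12915, had 7 and 19 counts, and its annotation also names an elongation factor family, so it may not encode a ribosomal protein.

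Some genes outside the lists were picked out after their values were seen. Of the 5 annotated PFA-DSP phosphatase genes, which in Arabidopsis cleave inositol pyrophosphates, PFA-DSP1 had 284 and 880 counts, PFA-DSP2 31 and 267 and PFA-DSP4 46 and 269, all higher. PFA-DSP3 and PFA-DSP5 had 221 and 170 and 196 and 134 counts and were not called. Col-0 had the same 3 calls. The vacuolar cation exchanger gene CAX3 had 36 and 233 counts, 7.51-fold higher (5.33 to 11.1), the kinase gene PPCK1 529 and 1425, and the transcription factor gene NF-YA2 176 and 468. Of 11 genes known to respond to low sugar, 5 were lower. Over all loci 1.03% were, but a group picked after its values were seen cannot be weighed against that share. These were BT2 with 516 and 137 counts, TPS11 with 644 and 268, DYL1 with 1008 and 419, AT3G15450 with 11362 and 4478, and AT4G35770 with 19 and 0. ASN1 and DIN10 of the same group had log2 ratios of -0.06 and -0.67. In Col-0, ASN1 was the 1 member called higher, with a log2 ratio of 1.44, and BT2 the 1 called lower.

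In Col-0, 606 loci (3.24%) met the size rule as higher at low phosphate and 278 (1.49%) as lower. Of these, 201 were also higher in med16-2, 47.6% of the mutant's higher loci and 33.2% of those of Col-0, and 44 were lower in both, 22.8% and 15.8%. In the mutant 206 loci were higher and 124 lower with no call in Col-0. A missing call does not show that a locus did not differ. The mutant's higher loci include the 74 rRNA, organelle and rRNA-like or organelle-like loci, most of which fall among the 206. In Col-0, 4 mitochondrial, 1 plastid, 3 organelle-like and 0 rRNA loci were called higher. The shares of overlap given here were not recomputed without such loci. Opposite calls were made for 40 loci. Of these, 25 were lower in med16-2 and higher in Col-0, and 15 the reverse.

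Those lower in med16-2 and higher in Col-0 included BCB, a blue copper protein, with 109 and 36 counts in med16-2 and 114 and 526 in Col-0, and GAD4, a glutamate decarboxylase, with 39 and 7 and 7 and 190. The jasmonate-regulated gene JRG21 had 75 and 23 and 16 and 61 counts, and the transcription factor gene MYB108 26 and 10 and 12 and 60. Those higher in med16-2 and lower in Col-0 included AT2G41810, with 251 and 822 and 336 and 222 counts, and RHS6, a root hair gene, with 61 and 107 and 93 and 68. Of these 15, 3 are mitochondrial or like organelle DNA. These examples were chosen after their values were seen.

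**Figure D5:**
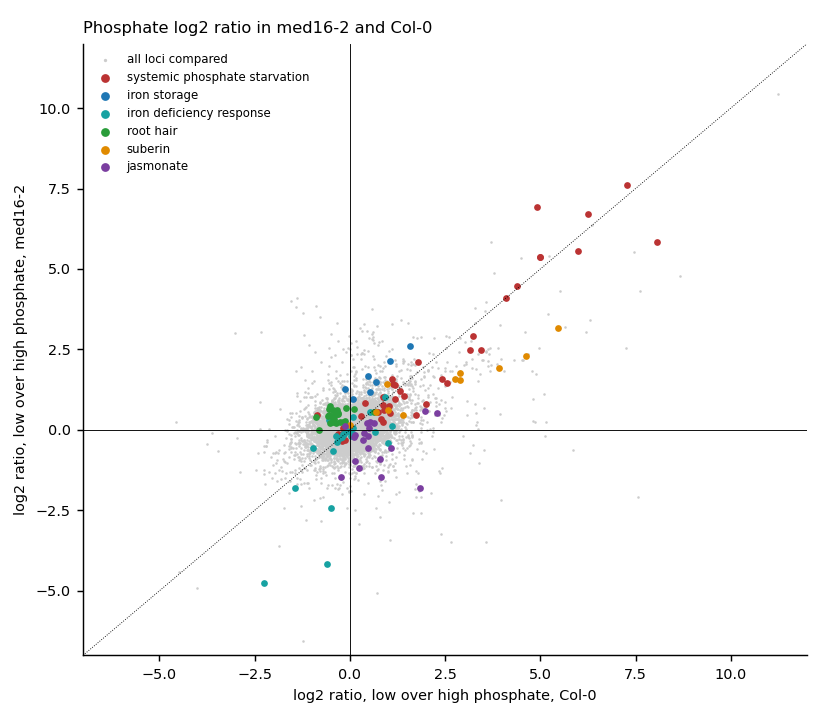
Each point is a compared locus, with the log2 ratio of low over high phosphate in Col-0 on the horizontal axis and in med16-2 on the vertical axis; coloured points are 6 gene lists and the dotted line marks equal ratios. Most phosphate starvation genes lie along the line, most iron storage genes above it, most suberin and jasmonate genes below it, and root hair genes cluster left of and above the origin.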

How the data were processed

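Libraries of root tip mRNA did not keep strand, per the labels' protocols. The authors deposited 1 file of read counts per locus and library, with no normalization. The tools, with TAIR10 as the genome build, were HTSeq 0.6.0, TopHat2 2.0.9 and Trimmomatic 0.35, per the submitters' processing notes; for their settings, the sources used here give none. Reads of overlapping or antisense loci cannot be told apart, and reads aligned to several places stay out of the gene counts. The 5 lines that name no gene took 12.5%, 9.89%, 10.1% and 42.1% of listed reads (Col-0 high, Col-0 low, med16-2 high, med16-2 low phosphate) and were left out. Gene counts then totalled 10079345, 15696333, 14266585 and 12302510, at which 3 counts are 0.305, 0.188, 0.208 and 0.245 CPM.

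Loci were scaled by edgeR 4.0.16 TMM over the 4 libraries and compared when their mean CPM was at least 1. Ratios used counts plus 0.5. Their 95% intervals are exact (Clopper-Pearson), and those of a difference of log2 ratios are normal, from the counts; both cover counting error only. The rules were checked on simulated counts. Ratios against 0 counts are bounds against 3 counts in that library. No file column was left unmapped.

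Members and all 28 lists were chosen with earlier results of these data known. Genes named were a set of well-known genes, the 12 highest and 12 lowest ratios of loci that met the rule with a mean of at least 5 CPM in med16-2, rRNA and organelle loci aside, and up to 5 members of each list or family meeting the rule; others were chosen after their values were seen. Names, promoters and overlaps came from RefSeq TAIR10.1 (32835 loci matched), and organelle-like loci from BLAST+ 2.17.0. Alternatives were DESeq2 1.42.0 size factors, total counts, TMM in med16-2 alone, removal of rRNA and organelle loci, other filters, a pseudocount of 5 and thinning.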

Additional observations from a re-analysis of the deposited data

Results flagged for a closer look

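The following measures outside the gene counts stood apart in the med16-2 low phosphate library, above the Col-0 libraries. Reads aligned to several places were 36.6% of its listed reads, and reads in no annotated gene were 4.43%, against 1.21% to 1.41% in the other libraries.

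Phosphate went with opposite directions in the genotypes for 40 loci called in both, a contrast that was not tested for lack of replicates. AOC1 is an example, with a log2 ratio of -1.80 in med16-2 and 1.83 in Col-0. Among root hair genes, 23 had a log2 ratio above 0 in med16-2 and below 0 in Col-0, also not tested.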

How the results depend on the processing

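No paired analysis was possible because each group has 1 library and the comparison comes from no test; for the same reason no replicate could be left out. The counts of 422 higher and 193 lower loci became 181 and 71 with a mean CPM of at least 5, since fewer loci were then compared. With that limit 369 loci differed between the genotypes, against 833, and 1 iron deficiency gene was lower, against 4; with no filter 9 were. Every other alternative kept these counts and those of the phosphate starvation genes (17 to 25, against 21) and iron storage genes (5 or 6, against 6) within 1.5 times. A like total can hide a change in which loci were called. With thinning 455 loci were higher and 192 lower, of which 367 and 165 were among the 422 and 193. Leaving out rRNA and organelle loci gave 372 higher and 194 lower loci, and also leaving out nuclear loci near rRNA genes or like organelle DNA, an alternative added after seeing the data, gave 354 and 194. Of the genes named by the rule, 98 were followed through the alternatives, and none of the 83 that met the size rule changed sign. Among those, 8 lost the rule under a scaling, a pseudocount of 5 or thinning, namely GSTF11, ZIP1, AMT1;1, JAZ8, EXPA12, FRD3, LSU2 and AT1G68850. Other genes named were not followed in this way. With 1 library per group, variation between plants is unknown, and genes with few counts in either library, such as SPX3, IRT1 and CYP86A1, have wide intervals.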
